A study of Mus musculus with 8 samples.

Results

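The inflammatory CC chemokines described here were 9 secreted proteins that attract leukocytes, Ccl2, Ccl7, Ccl12, Ccl8, Ccl3, Ccl4, Ccl6, Ccl9 and Ccl24. They were chosen by name from 30406 genes counted in all libraries, and all 9 had at least 1 UMI (a molecule tagged before amplification) in each of the 8 libraries. The libraries held single leukocytes of brain parenchyma, pia mater and dura mater, which are the tissue of the brain and its inner and outer coverings. Cells were sorted as CD45iv-CD45+, so leukocytes reached by a CD45 antibody given into the blood were left out. All mice were adult male C57BL/6. Control brain, pia and dura gave 1 library each. Mice killed 24 h after transient middle cerebral artery occlusion, a stroke model in which a brain artery is blocked and reopened, gave 2 brain libraries, 1 pia library and 1 dura library. A further brain library came from mice killed 72 h after occlusion. The control mice of these libraries were naive, by the study's methods, so they had no sham operation. It used a shorter and a longer occlusion, and which of them a library had is not given in the sources used here. Mice were pooled, so a library is not 1 animal.

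CC chemokines bind receptors on leukocytes and draw them into tissue. Ccl2, Ccl7 and Ccl12 act mainly on CCR2 and recruit monocytes, and Ccl8 belongs to the same group of genes. Ccl3 acts on CCR1 among other receptors, and Ccl3 and Ccl4 are made by activated macrophages, microglia and lymphocytes. Ccl6 and Ccl9 are rodent chemokines that act on CCR1 and are made by myeloid cells. Ccl24 acts on CCR3 and attracts eosinophils. After a stroke such chemokines are known to be made by microglia and by macrophages at the borders of the brain.

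The genes of 8 members lie on mouse chromosome 11 in build GRCm38, in 2 stretches. Ccl2 (82035571 to 82037453), Ccl7 (82045712 to 82047525), Ccl12 (82101845 to 82103400) and Ccl8 (82115185 to 82116799) follow each other on the plus strand. Ccl9 (83572919 to 83578636), Ccl6 (83587882 to 83593087) and Ccl3 (83647844 to 83649355) lie on the minus strand and are followed by Ccl4 (83662584 to 83664683) on the plus strand. Ccl24 lies apart, on the minus strand of chromosome 5 (135569937 to 135573049). Ccl2 overlaps the antisense gene Gm17268 and Ccl6 overlaps E230016K23Rik on the other strand. The 250 bases before the start are shown for 4 genes, from RefSeq on GRCm38.p6, on each gene's own strand. Ccl12 and Ccl8 are shown because they are neighbours with unlike levels in brain. Ccl6 and Ccl9 are shown because they are neighbours that were higher together in pia at 24 h. Capitals mark matches on either strand to the TATA box letters TATAAA or to the NF-kappaB letters, GGG and CC with any 5 bases between them, the site form of a transcription factor that inflammatory signals activate.
Ccl12, chr11:82101595-82101844, plus strand: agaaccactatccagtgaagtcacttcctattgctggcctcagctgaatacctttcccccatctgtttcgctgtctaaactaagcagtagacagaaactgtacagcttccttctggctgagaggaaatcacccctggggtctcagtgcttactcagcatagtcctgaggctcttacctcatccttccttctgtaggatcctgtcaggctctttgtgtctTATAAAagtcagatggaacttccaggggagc
Ccl8, chr11:82114935-82115184, plus strand: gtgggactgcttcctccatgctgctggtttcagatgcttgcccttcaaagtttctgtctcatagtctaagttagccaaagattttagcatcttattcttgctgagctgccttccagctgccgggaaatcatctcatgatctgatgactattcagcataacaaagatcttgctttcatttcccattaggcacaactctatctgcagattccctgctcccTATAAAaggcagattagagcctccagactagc
Ccl6, chr11:83593088-83593337, minus strand: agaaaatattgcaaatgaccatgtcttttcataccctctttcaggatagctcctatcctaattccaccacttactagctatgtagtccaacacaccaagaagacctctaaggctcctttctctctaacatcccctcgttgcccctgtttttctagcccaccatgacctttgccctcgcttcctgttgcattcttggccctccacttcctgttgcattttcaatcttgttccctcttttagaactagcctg
Ccl9, chr11:83578637-83578886, minus strand: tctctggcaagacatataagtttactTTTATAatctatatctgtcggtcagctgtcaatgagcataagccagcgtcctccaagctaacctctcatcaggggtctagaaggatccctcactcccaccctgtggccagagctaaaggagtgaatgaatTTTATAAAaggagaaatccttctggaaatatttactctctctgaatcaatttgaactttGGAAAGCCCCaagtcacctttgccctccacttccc
The TATA box letters lay 31 to 26 bases before the start in Ccl12 and 32 to 27 bases before it in Ccl8, so the pair share these letters at nearly the same distance. Ccl9 held 3 TATA matches, of which 2 overlapped, and an NF-kappaB match 35 to 26 bases before its start, while Ccl6 held neither. Ccl9 also held the AP-1 letters TGANTCA 53 to 47 bases before its start, and none of the 4 held the STAT6 letters, TTC and GAA with any 4 bases between them. Of 32851 mouse promoters of this length, 12.4% held the TATA letters, 45.8% the NF-kappaB letters, 6.75% the AP-1 letters and 5.85% the STAT6 letters. A match describes the letters in this window and is not a measured binding site.

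The libraries held 2810 to 6049 cells that the study had assigned to 21 clusters, 32457 of 36854 barcodes in all, with medians of 1071.5 to 2501 UMIs per cell. Values are CPM, the member's UMIs per 1000000 UMIs of the annotated cells of a library or of 1 cluster in it, for clusters of at least 30 cells. Intervals are exact 95% Poisson intervals and cover counting error only. At 1000 UMIs such an interval reaches 6.1% below and 6.4% above the value, and at 30 UMIs 32.5% below and 42.8% above, so intervals are printed where counts were low or ranges close. Brain 24 h replicate 2 and brain 72 h were counted on a shorter gene list than the other 6 libraries, so control brain with replicate 1, and replicate 2 with 72 h, are the pairs counted on the same gene list. The kit versions that the study lists divide the libraries otherwise, with brain at 72 h and dura at 24 h apart from the other 6. Time and listed kit therefore cannot be told apart in dura, nor between brain at 72 h and either brain library at 24 h. Replicate 2 and 72 h share a gene list but not a listed kit. Any 2 libraries shared at most 32 barcodes among annotated cells, or 0.816% of the smaller library. With 1 library per group outside brain at 24 h, differences between single groups below are descriptions of these libraries. Since these counts also defined the clusters, no test of a cluster against the others is given.

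Cluster names are the study's own. Micro_1 to Micro_3 are microglia and stress_Micro are stressed microglia, and shares of microglia clusters below include all of these. CAM_1 and CAM_2 are macrophages associated with the central nervous system, and Macro_1 and Macro_2 are other macrophages. SAMC are stroke-associated myeloid cells, and mDC are myeloid dendritic cells. Markers set limits on the names of the main chemokine sources. In pia and dura, CAM_1 held 3859 to 6013 CPM of border macrophage markers (the sum of Mrc1, Pf4, Lyve1, Cd163 and Cbr2) and 94.98 to 183 CPM of microglia markers (Tmem119, P2ry12, Sall1 and Sparc). In control brain and brain at 24 h the order was the opposite, with 10189, 2603 and 1024 CPM of microglia markers and 41.9, 7.33 and 503 CPM of border macrophage markers. At 72 h CAM_1 held 428 CPM of microglia markers, 623 CPM of border macrophage markers and 1475 CPM of the monocyte markers Ly6c2, Ccr2, Plac8, Chil3 and F10. CAM_2 in brain was alike, with 848 to 11607 CPM of microglia markers in control and at 24 h against 8.32 to 418 CPM of border macrophage markers, and with 1285 CPM of monocyte markers at 72 h. In brain these clusters are therefore called by their names only. Micro_2 in pia held 2116 to 3359 CPM of border macrophage markers and 521 to 986 CPM of microglia markers, and Micro_1 in dura at 24 h 869 and 444 CPM. Monocyte markers led Macro_2 in 3 of 8 libraries, at 630 to 1415 CPM in brain, and Macro_1 in brain at 72 h, at 4048 CPM. Microglia and macrophage clusters below are thus groups by name. Granulo_1 was led by monocyte markers in 6 of the 7 libraries with 30 or more such cells, at 5837 to 8676 CPM. The exception was control pia, with 753 CPM of monocyte markers and 2170 CPM of border macrophage markers in 55 cells. Granulo_2 was led by neutrophil markers in all 6 libraries in which it had 30 cells. The dura cluster Mast held 134849 and 143526 CPM of the mast cell markers Tpsb2, Cpa3, Cma1 and Mcpt4.

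The members' sources fell into few clusters. Counting the cluster with the highest CPM of each member in each library, CAM_1 led in 29 of 69 member and library pairs, Granulo_1 in 14 and Micro_3 in 13. In 53 of the 69 the leader's interval did not overlap that of the next cluster. No such count was made for other genes, so these counts are not read as particular to the members. The other 3 of 72 pairs were Ccl8 in brain, with fewer than 30 UMIs. Macro_1 had 30 cells in brain at 72 h alone. With clusters of 10 or more cells admitted, the leader was another in 19 of the 69 pairs, and in 14 of these it was Macro_1. The members' levels by library (plot of CPM by library) separated them as clearly: Ccl7, Ccl8 and Ccl24 were lower in every brain library than in every pia and dura library, while Ccl4 was highest in brain at 24 h.

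**Figure D1:**
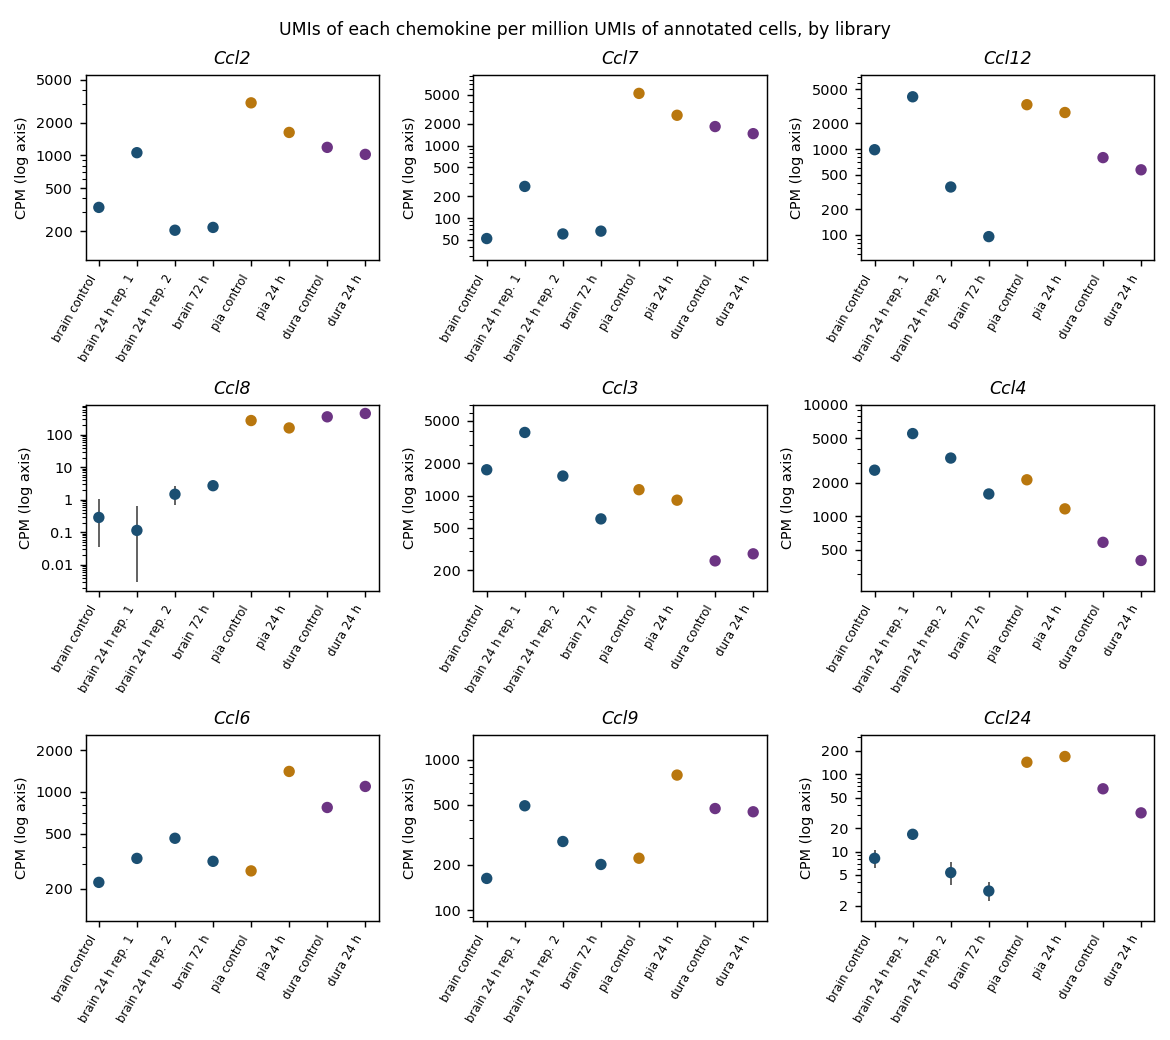
CPM of the 9 chemokines in annotated cells of each library, on log axes, with brain in blue, pia in orange and dura in purple, and bars for 95% Poisson intervals, which are mostly smaller than the points. Ccl7 lay at 52.1 to 273 CPM in the 4 brain libraries and at 1459 to 5245 CPM in the 4 pia and dura libraries, and Ccl6 was 5.22 times higher in pia at 24 h than in control pia.

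Ccl7 and Ccl2 attract monocytes, and Ccl7 was higher in every pia and dura library than in every brain library. Ccl7 was counted at 5245 CPM in control pia and 2618 CPM in pia at 24 h, at 1829 CPM in control dura and 1459 CPM in dura at 24 h. In brain it was counted at 52.1 CPM in control, 273 and 60.3 CPM in replicates 1 and 2 of 24 h, and 66.0 CPM at 72 h. The lowest meningeal library thus stood above the highest brain library, and both meningeal tissues were lower at 24 h than in control. Ccl2 was counted at 3063 and 1632 CPM in pia, 1187 and 1023 CPM in dura, and 331, 1060.4, 204 and 216 CPM in brain, where replicate 1 of 24 h stood above dura at 24 h. The 24 h to control ratio was 0.499 (95% interval 0.490 to 0.508) for Ccl7 and 0.533 (0.521 to 0.545) for Ccl2 in pia, and 0.798 (0.777 to 0.820) and 0.861 (0.834 to 0.890) in dura. In brain replicate 1 lay at 5.24 times control for Ccl7 and 3.20 times for Ccl2, while replicate 2 lay at 1.16 and 0.615 times, so the replicates disagreed for Ccl2 in direction.

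In pia and dura CAM_1 held the largest part of the Ccl7 UMIs, with 74.8% and 82.0% in pia and 48.2% and 56.9% in dura, and Macro_2 the next with 20.8%, 8.64%, 35.3% and 24.1%. With every cell thinned at random to 500 UMIs, 20.0% and 8.33% of B cells in pia held a Ccl7 UMI, and 10.5% and 5.71% in dura. By their intervals, 1 of 14 and 3 of 17 clusters in pia lay above this background, and 4 of 14 and 4 of 15 in dura. CAM_1 and Macro_2 were thus not both above background in control pia. In CAM_1 Ccl7 reached 16646 CPM in control pia, 8981 CPM in pia at 24 h, 10873 CPM in control dura and 8406 CPM in dura at 24 h. Each of these values lay above every brain value of CAM_1, where Ccl7 was counted at 338, 953, 462 and 479 CPM. Of all Ccl7 UMIs in pia, CAM_1 and CAM_2 held 76.0% in control and 83.8% at 24 h. The lower Ccl7 of pia at 24 h was mainly a lower level within clusters: 2436 of the 2628 CPM by which it was lower came from levels within clusters and the rest from their shares of UMIs. Ccl2 in pia had the same 2 main sources, with 66.8% and 70.3% of its UMIs in CAM_1, while in control dura Macro_2 held 42.6% and CAM_1 40.1%. Ccl2 in CAM_1 was 8681 and 4800 CPM in pia, 5873 and 5553 CPM in dura, and 1195, 2427, 899 and 696 CPM in brain.

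Mast cells were a smaller source in dura, after CAM_1 and Macro_2. They made up 2.24% of annotated cells in control dura and 2.06% at 24 h, and held 8.88% and 12.3% of the Ccl2 UMIs. Their Ccl2 was 7274 CPM (6705 to 7878) in control and 7090 CPM (6660 to 7539) at 24 h, above CAM_1 in both libraries and without overlap of the intervals. Ccl7 in the same cells was 6876 CPM in control and 7020 CPM at 24 h, below CAM_1. Ccl12 had 9 UMIs in the mast cells of control dura and 1 UMI in those of dura at 24 h. In CAM_1 of the same libraries Ccl12 was 3838 and 3031 CPM, beside 5873 and 5553 CPM of Ccl2, so the mast cells did not hold these genes in the ratio of CAM_1. When every cell was thinned at random to 500 UMIs, 87.3% of mast cells (76.5 to 94.4%, exact binomial interval, 63 cells) held a Ccl2 UMI in control dura and 84.9% (76.0 to 91.5%) at 24 h. The share in B cells of the same libraries, taken as the background of free RNA, was 3.92% and 3.20%. For Ccl12 the share of mast cells was 4.76% and 0%, against 5.23% and 0.913% in B cells, which is at the background.

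**Figure D2:**
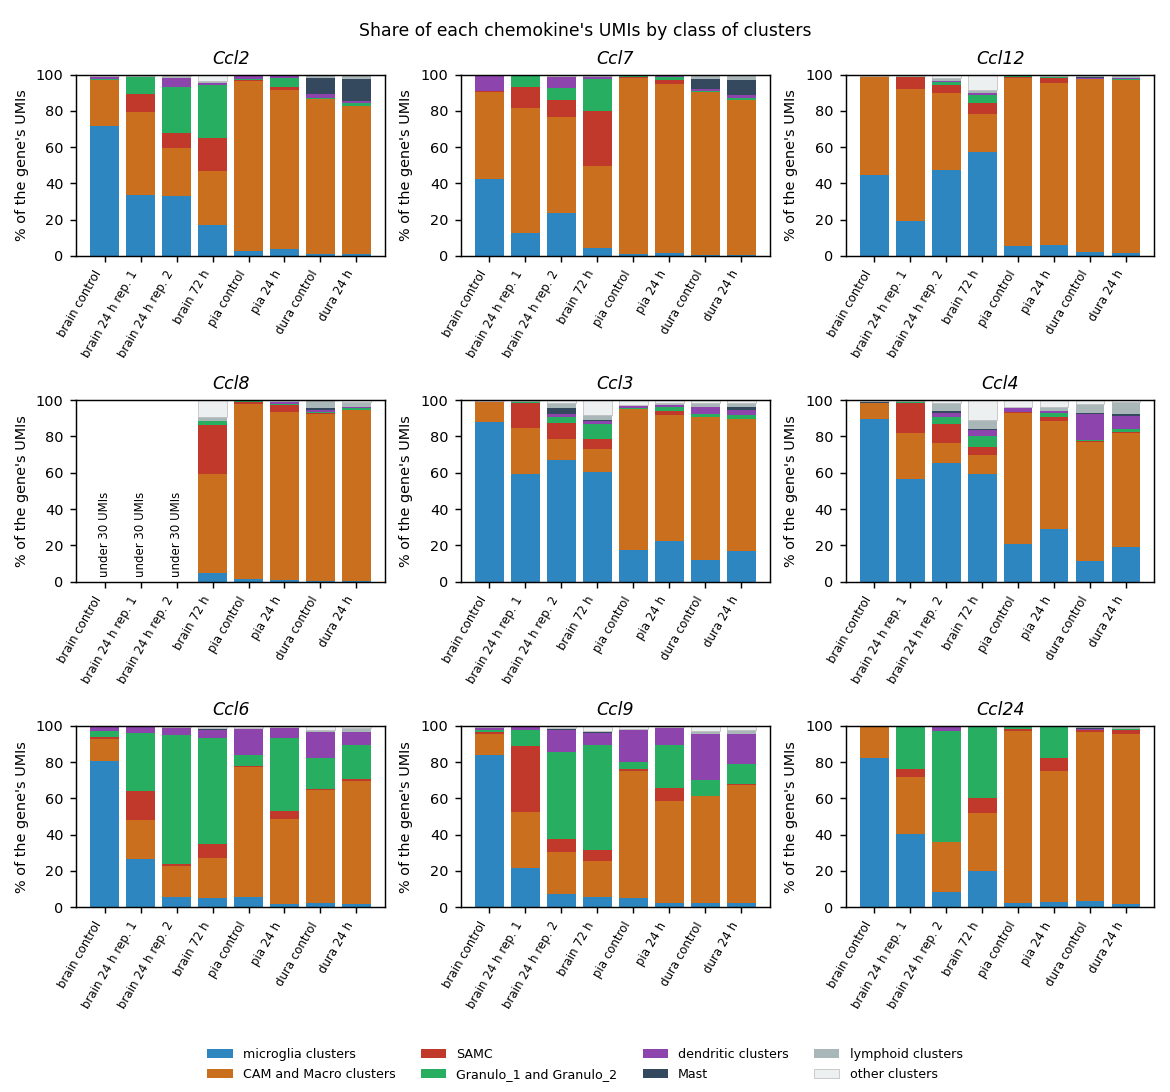
Percent of each chemokine's UMIs in annotated cells that lay in 7 classes of clusters or in the rest, in each library, with bars left out for Ccl8 in 3 brain libraries that had under 30 UMIs. CAM_1, CAM_2, Macro_1 and Macro_2 together (orange) held 81.3 to 97.4% of Ccl2 and Ccl7 UMIs in pia and dura, while microglia clusters (blue) held 56.3 to 89.9% of Ccl4 UMIs in brain.

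In brain the sources of Ccl2 were spread wider. CAM_1 held the largest part in replicate 1 of 24 h, with 39.4% of the UMIs, and 15.8% in replicate 2. The CAM and Macro clusters together held 588 of 2305 Ccl2 UMIs in control, 4253 of 9254 and 364 of 1370 at 24 h, and 1033 of 3493 at 72 h. Microglia clusters held 71.7% of the Ccl2 UMIs in control, 33.3% and 32.9% in replicates 1 and 2 of 24 h, and 17.3% at 72 h. Granulo_1 and Granulo_2 together held 0.174%, 9.25%, 25.5% and 29.2% in the same libraries, of which Granulo_1, the cluster led by monocyte markers, held 9.21%, 25.04% and 28.8% at 24 h and 72 h. The pair of clusters made up 0.209%, 2.90%, 11.2% and 27.9% of cells. In replicate 1 the highest Ccl2 was in Granulo_1, at 2716 CPM (2536 to 2904) in 86 cells led by monocyte markers, next to 2427 CPM (2349 to 2508) in CAM_1. In replicate 2 Granulo_1 had 327 CPM and at 72 h 280 CPM, so this lead was seen in 1 library. The 16 Macro_1 cells of replicate 1 held 4310 CPM (3666 to 5034). SAMC held 9.86%, 8.10% and 17.9% of the Ccl2 UMIs at 24 h and 72 h.

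Ccl12, a further ligand of CCR2, was not lower in brain than in the meninges throughout. It was counted at 986 CPM in control brain, 4089 CPM in replicate 1 and 362 CPM in replicate 2 of 24 h, and 95.3 CPM at 72 h. Pia held 3306 CPM in control and 2679 CPM at 24 h, and dura 797 and 574 CPM. The replicates of brain at 24 h stood on either side of control, with a mean of 2225 ± 2635 CPM (SD, n = 2) and a ratio of 11.3 between them, so no direction at 24 h can be given for brain. Between the pair counted on the same gene list, Ccl12 at 72 h was 0.263 times (0.247 to 0.281) that of replicate 2.

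Among clusters of at least 30 cells, CAM_1 led Ccl12 in 7 of 8 libraries, and in all 6 when those on the shorter gene list were left out. With clusters of 10 or more cells, Macro_1 led in 5 of the 8, at 15775 CPM in 13 cells of control brain and 15215 CPM in 22 cells of control dura. It held 19.7% of the Ccl12 UMIs of control dura and 11.9% at 24 h. The level in CAM_1 was 8506 CPM in control brain, 15901 and 3266 CPM at 24 h and 282 CPM at 72 h. In pia it was 7357 and 7203 CPM and in dura 3838 and 3031 CPM. Brain and pia thus overlapped in this cluster, which Ccl7 did not do. In brain, microglia markers in CAM_1 were highest in control and lowest at 72 h (plot of CAM_1). Its border macrophage markers were 41.9 CPM in control and 623 CPM at 72 h, so the cluster did not hold like cells at both times. The share of CAM_1 cells with a Ccl12 UMI at 500 UMIs was 85.5%, 76.5%, 42.0% and 8.96% in the 4 brain libraries. The last of these was not above the 3.11% of B cells within their intervals. In Micro_3, Ccl12 was 965, 3348, 1026 and 790 CPM in brain, so at 72 h Micro_3 was the leader.

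**Figure D3:**
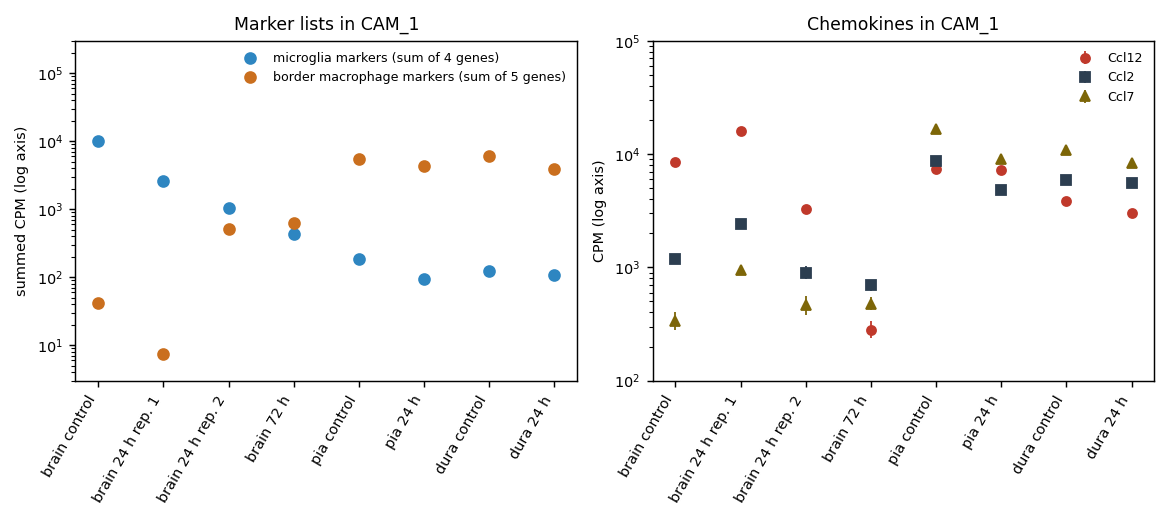
Cluster CAM_1 in each library: left, summed CPM of 4 microglia and 5 border macrophage markers, and right, CPM of Ccl12, Ccl2 and Ccl7 with 95% Poisson intervals, all on log axes. Microglia markers exceed border macrophage markers in 3 brain libraries and lie below them in brain at 72 h and in the 4 pia and dura libraries. Ccl7 is 8406 to 16646 CPM in pia and dura against 338 to 953 CPM in brain.

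Ccl8, the neighbour of Ccl12, was nearly absent from brain. It had 2, 1, 10 and 44 UMIs in the 4 brain libraries, or 0.287, 0.115, 1.49 and 2.72 CPM. Pia held 276 CPM in control and 163 CPM at 24 h, dura 359 and 454 CPM, so pia was lower and dura higher at 24 h. In dura CAM_2 led with 1923 CPM (1695 to 2173) in control and 2724 CPM (2541 to 2918) at 24 h, and CAM_1 followed with 871 CPM (788 to 960) and 2175 CPM (2074 to 2280). Macro_1, with under 30 cells, was higher still in both, at 2897 CPM from 171 UMIs and 3261 CPM from 135 UMIs. In pia the same clusters held 725 and 458 CPM, and 574 and 496 CPM. Macro_2 held 213 CPM (195 to 232) in control pia and 22.0 CPM (15.5 to 30.3) at 24 h, while it was at 693 and 479 CPM in dura. The direction in dura depended on how cells were weighted. With each cell counted equally, Ccl8 in dura was 0.29 lower at 24 h on the log2 scale.

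Ccl3 and Ccl4, which attract monocytes and T cells, had their highest levels in microglia clusters. In whole libraries Ccl4 was counted at 2590 CPM in control brain, 5520.1 and 3328 CPM at 24 h and 1583 CPM at 72 h. It was 2123 and 1164 CPM in pia and 582 and 400.1 CPM in dura. Both brain libraries at 24 h were above the control library and both meningeal libraries below theirs, with ratios of 2.13 (2.10 to 2.17), 1.29 (1.26 to 1.31), 0.548 (0.533 to 0.563) and 0.687 (0.654 to 0.721). Ccl3 was 1744, 3901, 1523 and 604 CPM in brain, 1134 and 904 CPM in pia and 244 and 284 CPM in dura. Its replicates at 24 h in brain lay on either side of control, at 2.24 and 0.873 times its level. At 72 h Ccl3 was 0.396 times (0.386 to 0.408) and Ccl4 0.476 times (0.467 to 0.484) the level of replicate 2.

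Micro_3 held the highest Ccl3 and Ccl4 in all 6 libraries with at least 30 of its cells. Ccl4 there was 11900 CPM (11671 to 12132) in control brain, 19490 CPM and 17172 CPM at 24 h and 18999 CPM at 72 h, and 20243 and 12804 CPM in pia. Ccl3 was 6251, 11156, 6762 and 6331 CPM in brain and 8136 and 6032 CPM in pia. In pia, however, Macro_2 and CAM_1 held more of the UMIs than the 39 and 69 Micro_3 cells. Macro_2, CAM_1 and Micro_3 held 43.3%, 25.4% and 15.3% of Ccl4 UMIs in control pia and 24.3%, 32.8% and 20.6% at 24 h. Their shares of Ccl3 UMIs were 40.9%, 33.6% and 11.5% in control pia and 24.3%, 41.3% and 12.5% at 24 h. At 500 UMIs per cell, 95.7 to 100% of Micro_3 cells held a Ccl4 UMI, against 8.33 to 22.5% of B cells or of B and T cells. Activated B and T cells can make Ccl4 themselves, so its background share is not free RNA alone. Micro_1 and Micro_2 had less, with Ccl4 at 1016 to 3957 CPM and 1297 to 4522 CPM in brain, highest at 72 h in both.

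Whole brain had its lowest Ccl4 at 72 h, while Micro_1 and Micro_2 had their highest then and Micro_3 lay between its values at 24 h. Microglia clusters were 86.9% of cells in control, 65.4% and 57.6% at 24 h and 17.0% at 72 h. Of these, stress_Micro alone was 0.326%, 0.240%, 13.8% and 3.52% of cells. SAMC, in contrast, held 8647 CPM (8459 to 8839) and 9635 CPM (9249 to 10033) of Ccl4 at 24 h in brain and 497 CPM (468 to 526) at 72 h. Ccl3 in SAMC was 5075, 3727 and 244 CPM. In pia at 24 h SAMC held 763 CPM of Ccl4 and 758 CPM of Ccl3, both above the 72 h level in brain and below both levels at 24 h. The share of SAMC with a Ccl4 UMI was 75.4% and 83.3% at 24 h, 12.6% at 72 h and 14.7% in pia, the last pair not above the background shares of 20.5% and 12.5%. Microglia markers in SAMC were 477, 427 and 262 CPM in these brain libraries and 169 CPM in pia. Border macrophage markers were 9.74, 61.6 and 481 CPM in brain and 2648 CPM in pia. Monocyte markers were 20.6 to 877 CPM in brain, highest at 72 h, where they led these lists, and 119 CPM in pia. The part of any of these lists in the difference was not tested.

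**Figure D4:**
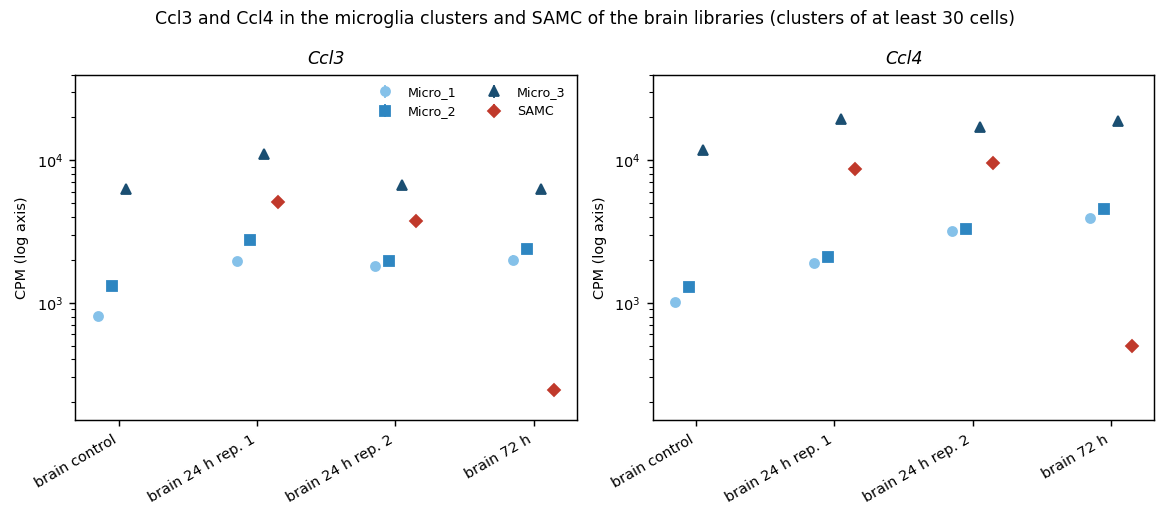
CPM of Ccl3 and Ccl4 in Micro_1, Micro_2, Micro_3 and SAMC of the 4 brain libraries, on log axes, with 95% Poisson intervals smaller than most points, for clusters of at least 30 cells. Micro_3 is highest in all 4 libraries, and Ccl4 in SAMC is 8647 and 9635 CPM at 24 h and 497 CPM at 72 h.

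Other cells with Ccl4 included natural killer cells, at 2637 CPM in brain replicate 2 and 3981 CPM at 72 h, and at 344 to 608 CPM in pia and dura. The cluster of proliferating cells had 5379 CPM and 11.0% of the Ccl4 UMIs in brain at 72 h. Stressed myeloid cells (stress_Myeloid) had 7496 CPM in control pia and 5689 CPM in pia at 24 h. CAM_1 held 19.7% of the Ccl4 UMIs in brain replicate 1. In dura, where fewer than 30 Micro_3 cells were annotated, CAM_1 led Ccl4 among larger clusters with 983 and 1050.1 CPM. Its interval overlapped that of the next cluster in both libraries. The largest part of the Ccl4 UMIs lay in Macro_2, with 41.6% and 31.8%. CAM_1 held 13.7% and 25.9%, and dendritic clusters 14.5% and 7.45%. The 13 Micro_3 cells of dura at 24 h held 16.9% of them, at 21615 CPM. Genes that rise while tissue is digested (Fos, Jun, Junb, Egr1, Atf3, Ier2, Dusp1, Hspa1a, Hspa1b and Zfp36) summed to 46853 CPM in control brain, 35898 and 20164 CPM at 24 h and 10311 CPM at 72 h, and to 10807 to 17557 CPM in pia and dura. Ccl3, Ccl4, Ccl2 and Ccl12 can be induced by handling as well, brain and meninges were digested for different times, and the part of handling in the members' levels was not tested.

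Ccl6 and Ccl9, ligands of CCR1, showed another pattern, with their highest values in pia after stroke. Ccl6 was counted at 269 CPM (255 to 282) in control pia and 1404 CPM (1377 to 1430.3) at 24 h, and at 771 and 1094 CPM in dura. In brain it was 222, 331, 462 and 315 CPM. Ccl6 at 24 h was thus above control in all 4 libraries, by ratios of 5.22 (4.95 to 5.51) in pia, 1.42 (1.37 to 1.47) in dura, and 1.49 and 2.08 in brain. Ccl9 was 222 and 790 CPM in pia, 474 and 451 CPM in dura, and 163, 494, 286 and 202 CPM in brain. Its ratio was 3.56 (3.35 to 3.78) in pia, 3.03 and 1.76 in brain, and 0.952 (0.905 to 1.00) in dura, where it did not differ beyond counting error.

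In pia the higher Ccl6 was found in several but not all myeloid clusters (plot of Ccl6 and Ccl9 by cluster). In mDC2 it was 505 and 484 CPM, and in Micro_1 181 and 226 CPM with overlapping intervals. B cells, taken above as the background of free RNA, were higher too. Their Ccl6 was 53.4 CPM (14.6 to 137) in control and 518 CPM (368 to 708) at 24 h, and their Ccl9 0 and 213 CPM. Granulo_1 held 1030 CPM (831 to 1261) in control and 4902 CPM (4746 to 5062) at 24 h, and its marker make-up differed between these libraries as given above. CAM_1 held 188 CPM (166 to 213) and 1189 CPM (1139 to 1240), CAM_2 299 CPM (242 to 366) and 2638 CPM (2490 to 2791), and Macro_2 313 and 972 CPM. Border macrophage markers in CAM_1 were 5472 and 4255 CPM, so these markers led the cluster in both libraries. Of the 1135 CPM by which Ccl6 was higher, 926 CPM came from levels within clusters, and of 568 CPM for Ccl9, 484 CPM. The share of CAM_1 cells with a Ccl6 UMI at 500 UMIs was 6.81% (4.88 to 9.19%) in control and 30.2% (27.1 to 33.3%) at 24 h, and in CAM_2 11.3% and 47.8%. In B cells it was 1.67% of 60 cells and 4.17% of 48, so the control share of CAM_1 was not above background within their intervals. Ccl9 in CAM_1 was 248 and 1058 CPM and in CAM_2 167 and 1401 CPM.

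**Figure D5:**
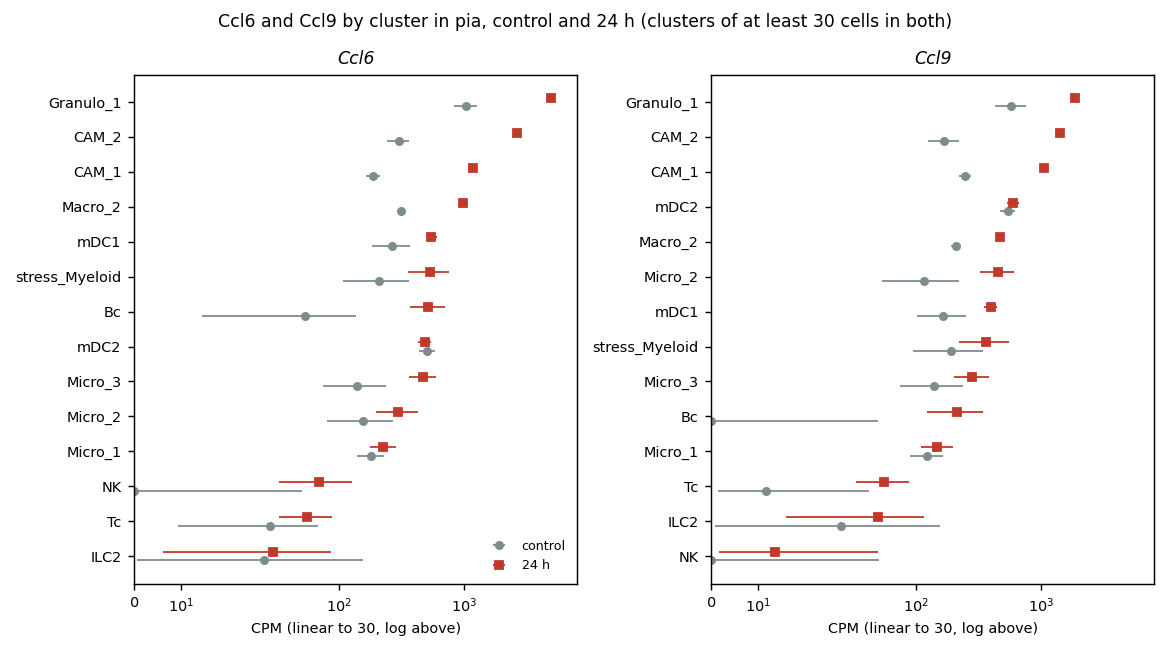
CPM of Ccl6 and Ccl9 in clusters with at least 30 cells in both pia libraries, control (grey circles) and 24 h (red squares), with 95% Poisson intervals, on axes linear to 30 CPM and logarithmic above. The intervals of CAM_1, CAM_2, Macro_2 and Granulo_1 do not overlap between control and 24 h for either gene, while those of mDC2 do for both.

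Dura held Ccl6 already in control, at 1410 CPM in CAM_1 and 1025 CPM in CAM_2, and at 2739 and 2935 CPM at 24 h. The largest part of the dura Ccl6 UMIs lay in Macro_2, with 43.6% and 32.1%, at 1261 and 1790 CPM. Granulo_1 of dura was at 3380 CPM (3094 to 3685) and 3894 CPM (3660.4 to 4138). In brain, Granulo_1 and Granulo_2 together held 2.85% of the Ccl6 UMIs in control, 32.0% and 71.3% at 24 h and 58.6% at 72 h. Most of this was in Granulo_1, which is led by monocyte markers and held 26.99%, 57.4% and 55.5% at 24 h and 72 h, at 2483, 1702 and 786 CPM at 24 h and 72 h. Control brain held 5 Granulo_1 cells and 1 SAMC, too few for a level to compare with. Ccl9 in brain replicate 1 was led by SAMC at 1703 CPM (1620 to 1789), which held 36.5% of its UMIs. In replicate 2 Granulo_1 led at 871 CPM (815 to 929) with 47.4%, and SAMC had 558 CPM and 7.06%. Granulo_1 also led at 72 h, at 523 CPM with 57.6%. In pia at 24 h SAMC had the highest Ccl9, 1991 CPM (1808 to 2187), but overlapped Granulo_1 at 1855 CPM (1760 to 1955). CAM_1 held 32.0% of the Ccl9 UMIs there and SAMC 7.20%. SAMC of brain at 72 h held 85.5 CPM of Ccl9. The dendritic cluster mDC2 held 542 and 599 CPM of Ccl9 in pia and 1002 and 812 CPM in dura. Macro_2 held the largest part of the dura Ccl9 UMIs, with 42.6% and 32.8%.

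Ccl24, the eotaxin of the list, had its highest level in CAM_1 in 3 of the 4 meningeal libraries. In whole libraries it was counted at 143 and 170 CPM in pia, 64.8 and 31.7 CPM in dura and 8.18, 16.7, 5.35 and 3.09 CPM in brain. CAM_1 held 480.0 CPM (444 to 518) and 376 CPM (349 to 405) in pia, and 509 CPM (446 to 578) and 190.2 CPM (161 to 223) in dura. In pia at 24 h SAMC reached 425 CPM (343 to 520) and Granulo_1 292 CPM (255 to 333), and Granulo_1 of brain replicate 1 had 112 CPM (77.7 to 155) from 35 UMIs. In dura 19.4% of CAM_1 cells held a Ccl24 UMI in control and 6.21% at 24 h, against 1.31% and 0% of B cells.

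The changes at 24 h were also split over all 9 members. In dura levels within clusters gave the larger part of the change for 8 of 9 members and in pia for 6 of 9. With clusters under 30 cells merged, an alternative added after the values were seen, these counts were 8 and 7. From 24 h to 72 h in brain they gave it for 8 of 9 members against replicate 1 and 7 of 9 against replicate 2. With small clusters merged these were 8 and 6. The larger part is meant by size. Before merging, the 2 parts had opposite directions for 5 of 9 members in dura and in each brain comparison, and for 0 of 9 in pia. Markers of CAM_1 and CAM_2 in brain differed between 24 h and 72 h, as given above. Levels within these clusters need therefore not be of like cells. The split was not made for other genes. No split is given between control brain and brain at 24 h, since the clusters that were larger at 24 h had few cells in control.

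Within cells of 1 cluster and library, some members were found together more often than others. Ccl4 was found in a larger share of cells with Ccl3 than of cells without it, with non-overlapping intervals, in 27 of 44 cluster and library sets of at least 100 cells. For Ccl2 and Ccl7 this held in 17 of 36 sets and for Ccl6 and Ccl9 in 12 of 42. Ccl2 and Ccl12 were alike in 9 of 36 sets, Ccl7 and Ccl12 in 6 of 27, and Ccl7 and Ccl24 in 0 of 27. For Ccl4 and Ccl6 the share was higher in 1 set and lower in 2 of 50. Pairs with more UMIs can pass this comparison more easily, so the order of the pairs is a description. Pairs of other genes were not compared, so the counts are not read as particular to the members.

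Over 112 sums by cluster and library, the pattern of log2(CPM + 10) of each member was compared with that of 8499 other genes by Pearson's r. These points share libraries, depth and the counts that made the clusters, so no p is given. Ccl2 and Ccl7 were each other's closest gene (r = 0.81), as were Ccl3 and Ccl4 (r = 0.92). Spearman's rho or a pseudocount of 1 kept Ccl3 and Ccl4 closest to each other, but put Ctsc first for Ccl2, and rho put Pf4 first for Ccl7. Ccl2 was followed by Ctsc and Mt1, Ccl7 by Pf4 and Tmem251, Ccl3 by Il1a and Cx3cr1, and Ccl4 by Klf6 and Cx3cr1. Ccl12 was closest to C1qb (r = 0.85), C1qc and Fcrls, and Ccl8 to Gpx3 (r = 0.87), Cbr2 and Cd209f. Ccl24 was closest to Colec12 (r = 0.81), Lyve1 and Folr2, but both other measures put Slc31a1 first. Ccl6 was closest to Clec4a2 (r = 0.84), Tpd52 and Alox5ap, and Ccl9 to Ms4a6d (r = 0.83), Nupr1 and Ms4a6c. Ccl6 and Ccl9 had r = 0.78 with each other, and Ccl7 and Ccl4 r = -0.04.

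Of the members' receptors, Ccr1, which binds Ccl3, Ccl6 and Ccl9, was counted at 17.1, 97.5, 102 and 101 CPM in brain, 199 and 346 CPM in pia and 67.1 and 109.9 CPM in dura. It was thus above control in all stroke libraries, and Granulo_1 or Granulo_2 led it in 7 of 8 libraries. Ccr2, the receptor of Ccl2, Ccl7 and Ccl12, was 13.6, 29.4, 247 and 357 CPM in brain, 163 and 178 CPM in pia and 263 and 169 CPM in dura. Ccrl2, a related receptor that does not signal in the usual way, was 152 to 305 CPM. Ccr3, the receptor of Ccl24, had at most 10 UMIs in a library, Ackr1 at most 7 and Ackr2 at most 2, too few to rank clusters.

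Only brain at 24 h had 2 libraries, so the residual spread of the main test also held differences between tissues in the effect of 24 h. This test asked whether 24 h differed from control on average over the 3 tissues, with tissue as a block. It used UMIs summed per library in 7 libraries without brain at 72 h (edgeR quasi-likelihood test, Benjamini-Hochberg adjustment). It called 0 of 11945 genes over all annotated cells (0%, with 409 at an unadjusted p under 0.05) and 0 of 9486 in the macrophage clusters (0%, with 459), so none of the 9 members was called. Macrophage clusters here are CAM_1, CAM_2, Macro_1 and Macro_2 by name, of which the CAM clusters of brain held microglia markers as given above. On simulated data this test and the interaction below missed most of the changed genes, so a count of 0 says little about the members. DESeq2 called 63 and 17 genes and no member. On the simulated data DESeq2 found 56% and 54% of the changed genes, and 30.4% and 20.6% of its calls were false. The members with the largest fitted change were Ccl6, at a log2 fold change of 1.05 (SE 0.45, edgeR adjusted p = 0.988) over all cells and 1.06 (SE 0.47, edgeR adjusted p = 0.945) in macrophage clusters, and Ccl9, at 0.94 (SE 0.50, edgeR adjusted p = 0.988) and 1.18 (SE 0.43, edgeR adjusted p = 0.945). Both genes were higher at 24 h in every tissue except Ccl9 in dura over all cells. The other 7 members lay between -0.25 and 0.13 over all cells, beside a median of 0.06 over all genes tested. None of the tested genes of the other lists was called in this comparison over all cells. These were 3 of 6 receptors (median log2 fold change 0.76), 7 of 10 other chemokines (0.19), 13 of 13 inducers and feedback genes such as Nfkb1, Tnf and Il10 (0.00) and 10 of 10 digestion genes (-0.64).

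Pia and dura alone, a fit added after the values were seen, gave more calls: 888 of 11124 genes (7.98%), of which 497 were lower (4.47%). The added fit compared 2 libraries with 2 and kept 1 residual degree of freedom. Neither tissue had a replicate, so the spread was the difference between pia and dura in the effect of 24 h. Ccl2, Ccl7 and Ccl4 were called lower at 24 h, by log2 fold changes of -0.62 (SE 0.20, edgeR adjusted p = 0.0362), -0.72 (SE 0.19, edgeR adjusted p = 0.0112) and -0.76 (SE 0.19, edgeR adjusted p = 0.00406), each lower in both tissues. In macrophage clusters of pia and dura 619 of 9178 genes were called (6.74%, with 3.5% lower), among the members Ccl4 alone (-0.63, SE 0.13, edgeR adjusted p = 0.0221). Ccl6 and Ccl9 were not called in either added fit. Each tissue had 1 library per time, and in dura time and listed kit cannot be told apart. The calls of these added fits are therefore not read as an effect of 24 h in the meninges.

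Whether the difference at 24 h was another in brain than in pia and dura was tested as an interaction. It called 0 of 13179 genes over all cells (0%, with 217 at an unadjusted p under 0.05) and 0 of 10397 in macrophage clusters (0%, with 143). DESeq2 called 43 and 0, and on simulated data 50% and 69.2% of its calls for the interaction were false. The fitted differences rested on which brain library at 24 h was used. Without replicate 2 brain had 1 library per group and 1 residual degree of freedom was left, so the spread came from pia and dura, and brain was assumed to vary like them. The test then called 254 of 12377 genes (2.05%, with 1.87% higher in brain) and among them Ccl2 (2.20), Ccl7 (3.01), Ccl12 (2.40) and Ccl4 (1.76, all log2). In the 4 clusters named macrophage it called 130 of 10175 genes (1.28%, with 0.717% higher in brain), the same 4 members among them, at 1.45, 1.90, 1.16 and 1.86. Without replicate 1 the values of these members over all cells were -0.53, 0.48, -1.45 and 0.67, so Ccl2 and Ccl12 turned in sign while Ccl7 and Ccl4 stayed above 0. The number of genes called also rested on which brain library at 24 h was left out, with the range given below. With 1 brain library per group, such calls cannot separate an effect of 24 h in brain from a difference between single libraries. The calls without replicate 2 are therefore not read as an effect in brain. Replicate 2 was counted on the shorter gene list and replicate 1 was not, and this difference cannot be told apart from one between mice. Replicates 1 and 2 also had medians of 1688.5 and 1071.5 UMIs per cell, and 7.62% and 20.2% of barcodes without a cluster. They held 809 and 29442 CPM of neutrophil markers, and 0 and 427 CPM of the red cell genes Hba-a1 and Hbb-bs. Cells of stress_Micro numbered 11 and 479. The part of any of these in the disagreement was not tested.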

How the data were processed

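Leukocytes of 8 libraries were profiled by droplet single-cell RNA sequencing. The authors aligned and counted reads with Cell Ranger 6.0 on mm10, per the submitters' processing notes, and deposited filtered matrices of UMI counts and a table that assigns barcodes to their clusters. Per the methods, they removed doublets and clustered the cells over all libraries, so clusters carry their choices. Barcodes without a cluster, 6.42 to 20.2% of a library, were not used. Libraries held 6591898 to 20754181 UMIs over all barcodes and 5721549 to 16162959 in annotated cells. All columns were mapped to samples, and control pia was taken as pia from its tissue label, although its title names brain.

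Counts were summed per library and cluster over 30406 genes that both gene lists hold, and given as CPM with exact Poisson intervals. Shares of cells used cells thinned at random to 500 UMIs, with exact binomial intervals, and a share was called above background where its interval lay above that of B cells, or of B and T cells where fewer than 30 B cells remained. The 95% intervals cover counting error only. Summed counts of 7 libraries were tested with edgeR 4.0.16 (TMM, filterByExpr, quasi-likelihood test, tissue as a block) in R 4.3.3, called at an adjusted p under 0.05 over all genes tested, with 3 and, for the interaction, 2 residual degrees of freedom. Replicates in the tests are libraries of pooled mice, and only brain at 24 h had 2 libraries. The spread behind the p-values therefore also holds differences between tissues in the effect of 24 h. The scripts were tested on simulated data, on which edgeR missed most changed genes in the fits over all 7 libraries. Alternatives were DESeq2 1.42.0, library size alone, no filter, thinning, SAMC added, other cell minima and weights, each library left out and, added after the data were seen, pia and dura alone, small clusters merged and the leading clusters without the libraries on the shorter gene list. All 9 members are named, with the 3 genes most like each and 6 receptors. A further receptor and a further microglia marker are not reported here, and the sums and medians leave them out. The members and lists were chosen with earlier results of these data known. Changes in CPM were split into levels within clusters and cluster shares as the mean of both orders. Python 3.11.15 with numpy 2.4.6, scipy 1.17.1 and pandas 2.3.3 was used. Positions are from GENCODE on GRCm38, and promoters from the RefSeq table, in which 5 of 9 members were found.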

Additional observations from a re-analysis of the deposited data

Results flagged for a closer look

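Ccl7 and Ccl4 were flagged because both brain libraries at 24 h lay above control brain while pia and dura at 24 h lay below their controls. The ratios of 24 h to control for Ccl7 were 5.24 and 1.16 in brain, 0.499 in pia and 0.798 in dura. For Ccl4 they were 2.13 and 1.29 in brain, 0.548 in pia and 0.687 in dura. The interaction test of this difference did not call either gene, with a log2 difference of 2.28 (SE 1.52, edgeR adjusted p = 1) for Ccl7 and 1.34 (SE 1.07, edgeR adjusted p = 1) for Ccl4 over all cells. Without the second brain replicate the log2 difference was 3.01 for Ccl7 and 1.76 for Ccl4, and without the first it was 0.48 and 0.67. Its size thus rested on which brain replicate was used.

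Pia and dura moved in opposite directions for 3 members, each from 1 library per group, and the difference was not tested. For 2 of them dura turned under an alternative, Ccl8 as a mean over cells (log2 -0.29) and Ccl3 over all barcodes (-0.0022). Ccl8 had ratios of 0.592 in pia and 1.27 in dura, Ccl3 of 0.798 in pia and 1.16 in dura, and Ccl24 of 1.19 in pia and 0.488 in dura.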

How the results depend on the processing

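Main calls of 0 genes were kept under library size alone, thinning to 500 UMIs and, for macrophage clusters, SAMC added, and moved under other choices. In the order 24 h against control over all cells and in macrophage clusters, then brain against pia and dura in both, DESeq2 called 63, 17, 43 and 0 genes, and edgeR without the filter on low counts 184, 73, 91 and 15. Leaving out 1 library gave 0 to 69, 0 to 169, 0 to 6293 and 0 to 2937 calls, the highest of each pair without 1 brain library at 24 h. Pia and dura alone, added after the data were seen, gave 888 and 619. With 1 library left out, log2 fold changes over all cells at 24 h against control ranged from -0.78 to 0.38 for Ccl2, -0.73 to 0.72 for Ccl7, -0.90 to 0.42 for Ccl12, -0.30 to 0.60 for Ccl8, -0.27 to 0.38 for Ccl3, -0.77 to 0.10 for Ccl4 and -0.62 to 0.22 for Ccl24. Those in macrophage clusters at 24 h against control ranged from -0.70 to 0.14 for Ccl2, -0.47 to 0.36 for Ccl7, -0.89 to 0.22 for Ccl12, -0.27 to 0.49 for Ccl8, -0.22 to 0.36 for Ccl3, -0.62 to 0.25 for Ccl4 and -0.42 to 0.12 for Ccl24. Those for brain against pia and dura over all cells ranged from -0.53 to 2.20 for Ccl2, -1.45 to 2.40 for Ccl12, -1.03 to 2.11 for Ccl8, -0.54 to 1.18 for Ccl3, -1.70 to 0.051 for Ccl6, -0.64 to 1.13 for Ccl9 and -0.64 to 1.36 for Ccl24. Those for brain against pia and dura in macrophage clusters ranged from -0.99 to 1.45 for Ccl2, -2.37 to 1.16 for Ccl12, -4.80 to 1.55 for Ccl8, -0.92 to 0.87 for Ccl3, -0.49 to 1.14 for Ccl9 and -0.40 to 0.87 for Ccl24. Members changed sign against the fitted value with thinning (Ccl7 -0.086 and Ccl8 -0.68 over all cells; Ccl12 0.040, Ccl8 -0.40 and Ccl4 0.060 in macrophage clusters; for brain against the meninges Ccl9 -0.28 over all cells, Ccl8 -1.24 and Ccl9 -0.13 in macrophage clusters), with SAMC added (Ccl7 -0.073, Ccl4 0.0073 and, for brain against the meninges, Ccl8 -0.17) and with library size alone (Ccl12 0.019). With pia and dura alone they did so for Ccl7 -0.72, Ccl12 -0.44, Ccl8 -0.26 and Ccl3 -0.11, and Ccl7 -0.48 in macrophage clusters. None of these sign changes had a called main value, and the cause was not tested.

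CPM ratios changed sign in dura for Ccl8 as a mean over cells (-0.29) and Ccl3 over all barcodes (-0.0022), both log2. In brain at 24 h the log2 ratio ran from -0.70 to 1.68 for Ccl2, -1.45 to 2.05 for Ccl12, -0.20 to 1.16 for Ccl3 and -0.61 to 1.03 for Ccl24 with 1 replicate left out. Of the CPM comparisons of members, 14 were higher, and 10 to 14 with a replicate left out. Levels within clusters were the larger of the 2 parts by size in 37 of 52 changes, and in 25 to 26 of those left without a brain replicate. These include changes from control brain, which rest on few cells, and without them and with small clusters merged the count was 29. The leading cluster was kept in 50 of 69 pairs with a minimum of 10 cells and in 62 by the mean over cells. Co-detection was higher in 81 sets, and in 145 without thinning, where more sets were compared for every pair. Shares above background were 280 of 1008 at 500 UMIs, 289 of 909 at 1000 and 415 without thinning. No paired analysis was possible because the labels number replicates in brain at 24 h only. Depth limits Ccl8 and Ccl24 in brain, at no more than 44 and 146 UMIs in a library, and Ccr3.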
